A study of Mus musculus with 12 samples.

Results

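Transcripts of 5 regulators of RNA and chromatin were followed in subcutaneous mouse prostate tumors: Mbnl1, Ankhd1, Mtf2, Sp3 and Ints2. These are 5 of the 55401 genes in the deposited count table, and all 5 were among the 20818 genes that passed the filter on low counts. They were picked because their transcripts were lower in the A300 tumors than in the Control1 tumors, so that difference is the reason for their choice and is given below as a description without a test. The choice followed the call rule of an edgeR fit over all genes, in which a gene is called when its change reaches 1.5-fold and its p, adjusted over all genes by Benjamini-Hochberg, is below 0.05.

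The 12 tumors formed 4 groups of 3, each from 125000 TC2Ras cells, a Ras-driven mouse prostate cancer line, injected under the skin of both flanks and taken at day 21, with the 2 flanks of a mouse combined. Control1 tumors grew from TC2Ras cells alone in mice drinking water with 0 ppb inorganic arsenic (iAs), and ASC tumors also had 0 ppb iAs but were seeded with 1% ASC-GFP cells, which are adipose-derived stromal cells. A300 tumors grew from TC2Ras cells alone under 300 ppb iAs, and ASC300 tumors combined 300 ppb iAs with 1% ASC-GFP cells. Every mouse had first been kept on low-arsenic chow and purified water, and the age, sex and strain of the hosts are not given in the sources used here. The model is a single transplanted line at a site other than the prostate. Each library comes from a piece of tumor tissue, with other tissue of the tumors taken for flow cytometry. In such mixed tissue, fewer cells of a type and less RNA per cell cannot be told apart.

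Total counts ran from 39157647 to 55168642 per tumor, and no 2 tumors had log2 profiles that correlated above 0.974. The labels name adipose-derived stromal cells as the cell type, while the design describes tumors. The libraries held 8 of 8 stromal markers (summed level 3624 to 6095 CPM, counts of a gene per 1000000 normalized counts of the tumor), 8 of 8 macrophage markers (828 to 1706 CPM) and epithelial markers led by Krt8, with none of the 8 epithelial markers at 0 in all tumors. Control1 replicate 1 stood apart in its B cell markers, and the summed level of the 8 genes ran from 5.39 to 229.9 CPM in Control1 against 2.74 to 6.54 CPM in A300. T cell markers ran from 11.4 to 65.6 CPM in Control1 and from 10.9 to 15.3 CPM in A300. The 65.6 CPM was again Control1 replicate 1, with 12.7 and 11.4 CPM in replicates 2 and 3. Skeletal muscle markers ran from 1.51 to 1978 CPM in Control1 and from 4.43 to 1932 CPM in A300.

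The 5 proteins act at several points between chromatin and mature RNA. SP3 is a zinc finger transcription factor that binds GC boxes in promoters, and MTF2 (also called PCL2) is an accessory subunit that brings Polycomb repressive complex 2 (PRC2), the enzyme that methylates histone H3 at lysine 27, to CpG islands. INTS2 is a subunit of Integrator, the complex that cleaves small nuclear RNAs at their end and terminates paused RNA polymerase II. MBNL1 is a zinc finger protein that binds pre-mRNA and directs alternative splicing, and ANKHD1 is a protein with ankyrin repeats and a KH domain that works with YAP, the effector of the Hippo pathway.

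In the GRCm38 build with GENCODE M21, Mbnl1 (ENSMUSG00000027763) lies at chr3:60472830-60629750 on the plus strand, Mtf2 (ENSMUSG00000029267) at chr5:108065674-108109004 on the plus strand, Sp3 (ENSMUSG00000027109) at chr2:72936427-72980446 on the minus strand, and Ints2 (ENSMUSG00000018068) at chr11:86210681-86257575 on the minus strand. Ankhd1 (ENSMUSG00000024483) lies on a plus strand too. All 5 are protein coding, and the deposited values are per gene, not per transcript.

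Because SP3 is itself one of the 5 genes and binds GC boxes, the 250 bases before the RefSeq starts of the genes were searched for the box GGGCGG on both strands (CCGCCC on the reverse), counting overlapping matches. The search covered 7 RefSeq (GRCm38.p6) starts of 4 of the 5 genes, with Ankhd1 left out. Of these starts, 5 held at least 1 box, beside 32.7% of 32851 mouse promoters of the same length. Some of the 4 genes gave more than 1 start, and the 32851 promoters were not limited to genes expressed in these tumors. Enrichment was not tested. The most upstream start of each of the 4 genes is printed, with every box in capitals. The Mbnl1 window is chr3:60472580-60472829 on the plus strand (38.0% GC, no box), the Mtf2 window chr5:108065424-108065673 on the plus strand (59.2% GC, 1 box), the Sp3 window chr2:72980447-72980696 on the minus strand (69.2% GC, 2 boxes) and the Ints2 window chr11:86257595-86257844 on the minus strand (50.4% GC, 2 boxes).
Mbnl1: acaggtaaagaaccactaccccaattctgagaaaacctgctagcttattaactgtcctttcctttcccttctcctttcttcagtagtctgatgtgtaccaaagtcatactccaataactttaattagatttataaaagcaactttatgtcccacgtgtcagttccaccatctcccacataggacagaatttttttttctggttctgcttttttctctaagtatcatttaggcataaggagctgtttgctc
Mtf2: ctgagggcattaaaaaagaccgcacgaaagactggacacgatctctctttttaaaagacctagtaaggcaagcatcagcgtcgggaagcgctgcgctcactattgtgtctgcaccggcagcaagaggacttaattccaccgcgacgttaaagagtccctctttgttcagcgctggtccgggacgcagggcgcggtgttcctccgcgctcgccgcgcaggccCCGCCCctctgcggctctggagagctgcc
Sp3: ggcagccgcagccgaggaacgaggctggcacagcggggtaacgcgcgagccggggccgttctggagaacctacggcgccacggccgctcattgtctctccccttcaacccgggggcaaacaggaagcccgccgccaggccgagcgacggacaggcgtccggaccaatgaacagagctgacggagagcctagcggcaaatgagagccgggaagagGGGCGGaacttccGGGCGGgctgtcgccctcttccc
Ints2: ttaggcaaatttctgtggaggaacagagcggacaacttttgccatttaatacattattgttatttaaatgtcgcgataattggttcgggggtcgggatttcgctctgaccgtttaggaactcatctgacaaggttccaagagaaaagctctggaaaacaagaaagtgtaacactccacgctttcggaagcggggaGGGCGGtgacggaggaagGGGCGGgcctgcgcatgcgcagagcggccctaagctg
The second Mbnl1 start, at a CpG-rich stretch inside the gene, had 4 boxes and 73.6% GC, far from the first Mbnl1 start in both. The median over all promoters was 52.4% GC. A box in these windows is a match of letters and says nothing about binding in the tumors.

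The question the first comparison addressed was how iAs in drinking water changed tumor transcripts in the absence of added ASC. All 5 genes were lower in A300 than in Control1, with changes from -33.9% for Ints2 to -57.9% for Mtf2. Across all genes, 52.5% had a log2 difference below 0. Of the 20818 genes tested, 74 (0.355%) were called lower by the rule and 146 (0.701%) higher, and the 5 genes are among the 74 because they were picked from them. In each of the 5 the highest A300 tumor was below the lowest Control1 tumor, which was so for 15.4% of all tested genes.

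**Figure D1:**
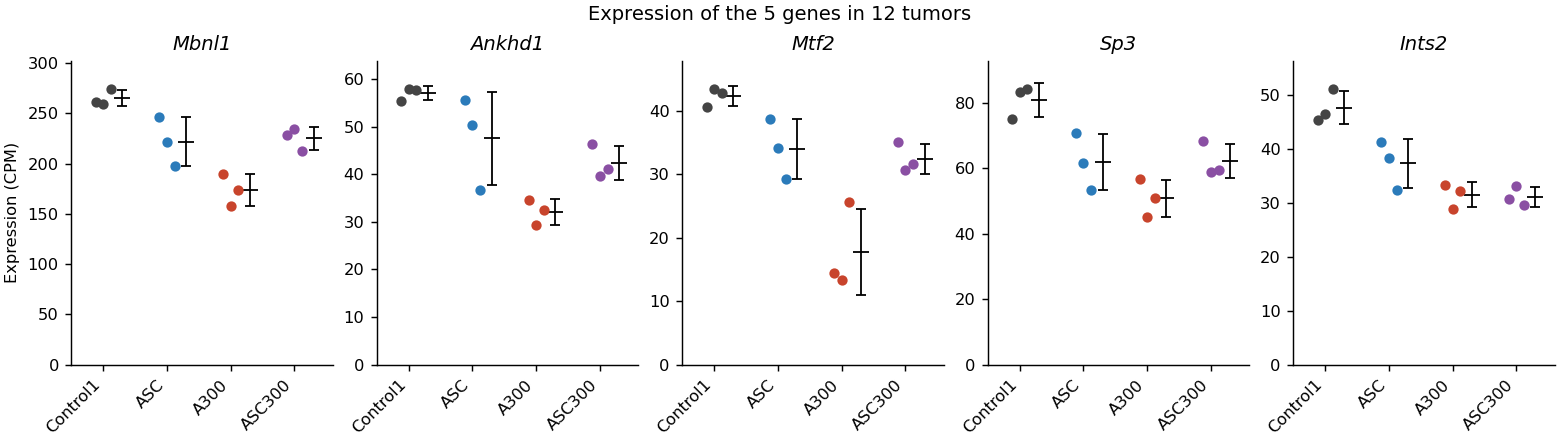
Expression in CPM (y axis, from 0) of each of the 5 genes in the 12 tumors by group (x axis), with points for tumors and black marks for the mean ± SD of 3 tumors. A300 tumors lie below every Control1 tumor in all 5 panels, and the ASC and ASC300 tumors overlap in all 5.

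Starting at chromatin, Mtf2 had the largest fitted difference. In Control1 it was at 40.5, 43.4 and 42.8 CPM, and in A300 at 14.4, 13.4 and 25.5 CPM. A300 replicate 3 thus lay well above the other A300 tumors, and the A300 group was the most spread for any of the 5 genes, with a coefficient of variation of 38.0% against 3.63% in Control1. The ASC tumors had 38.7, 34.0 and 29.2 CPM and the ASC300 tumors 35.1, 30.6 and 31.5 CPM, so that both groups lay between Control1 and A300 without touching either. The fitted log2 difference of A300 from Control1 was -1.25 ± 0.20 (SE), and leaving out single tumors moved it between -1.58, without A300 replicate 3, and -1.08, without A300 replicate 2. Tmed5, a gene on the opposite strand, shares 395 exon bases with Mtf2 and averaged 106.6 CPM in Control1 and 87.6 CPM in A300.

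Sp3 was at 75.0, 83.4 and 84.3 CPM in Control1 and at 56.6, 45.2 and 50.8 CPM in A300. Its means were 80.9 ± 5.12 and 50.8 ± 5.70 CPM (SD, n = 3), a fitted log2 difference of -0.67 ± 0.12. The ASC tumors, at 70.7, 61.4 and 53.4 CPM, and the ASC300 tumors, at 68.3, 58.9 and 59.5 CPM, were again intermediate, and the lowest ASC tumor overlapped with A300. The antisense gene Sp3os shares 109 exon bases with Sp3 but had only 0.92 to 1.66 CPM over the 12 tumors.

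Ints2 was the gene with the smallest fitted difference and the one whose level was low in both iAs groups. It was at 45.3, 46.5 and 51.2 CPM in Control1, at 33.4, 28.9 and 32.2 CPM in A300, and at 30.8, 33.2 and 29.6 CPM in ASC300. The ASC tumors, at 41.2, 38.4 and 32.4 CPM, reached from near Control1 down into the range of the iAs groups. A300 and ASC300 averaged 31.5 ± 2.34 and 31.2 ± 1.85 CPM (SD, n = 3), and the fitted log2 difference from Control1 was -0.60 ± 0.10 in A300 and -0.61 ± 0.10 in ASC300. The antisense gene Brip1os shares 512 exon bases with Ints2 and averaged 108.4 CPM in Control1 and 98.1 CPM in A300, above Ints2 itself.

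Mbnl1 had the highest CPM of the 5. It was at 261, 259.8 and 275 CPM in Control1 and at 190.1, 158 and 174 CPM in A300, with means of 265 ± 8.07 and 174 ± 16.2 CPM (SD, n = 3) and a fitted log2 difference of -0.61 ± 0.09. ASC tumors had 246, 221 and 198 CPM and ASC300 tumors 229, 234 and 212 CPM. These 2 groups overlapped with each other and stayed apart from both Control1 and A300.

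Ankhd1 was at 55.4, 58.0 and 57.8 CPM in Control1, the tightest group of all (coefficient of variation 2.47%), and at 34.7, 29.2 and 32.5 CPM in A300, a fitted log2 difference of -0.83 ± 0.13. ASC tumors were spread from 36.7 to 55.6 CPM and ASC300 tumors from 39.6 to 46.3 CPM, so ASC touched the Control1 range in 1 tumor and came close to A300 in another. The protein-coding gene AC115631.1 lies on the same strand and shares 1624 exon bases with Ankhd1, and it went the other way, from 23.7 ± 6.31 CPM in Control1 to 31.3 ± 3.88 CPM in A300 (SD, n = 3). That difference of AC115631.1 did not pass the test (log2 0.40 ± 0.20, edgeR quasi-likelihood adjusted p = 0.238). Ankhd1 took 64.2% to 74.6% of the counts of the pair in Control1 and 48.1% to 55.9% in A300. With the counts of both genes summed, the locus was at 80.7 ± 4.93 CPM in Control1 and 63.4 ± 3.64 CPM in A300, and the log2 difference was -0.35 ± 0.09, smaller than for Ankhd1 alone. How reads in the shared exons were divided between the genes is not given in the sources used here, so the Ankhd1 value is uncertain to that extent. The summed level ran from 77.4 to 86.4 CPM in Control1 and from 60.7 to 67.5 CPM in A300.

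Leaving out Control1 replicate 1, the tumor with the high B cell, T cell and epithelial markers, changed the 5 log2 differences by little. They came to -0.60 for Mbnl1, -0.83 for Ankhd1, -1.26 for Mtf2, -0.70 for Sp3 and -0.62 for Ints2. In the order of p among genes called lower, the rule left Mbnl1, Ankhd1, Mtf2, Sp3 and Ints2 all within the first 6, with the pseudogene Gm9118 (log2 -0.62) between Mtf2 and Sp3 and with Bclaf1 (log2 -0.59) next after Ints2. Ints2 at -0.60 lay close to the minimum of 0.585 on the log2 scale.

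Per kilobase of merged exons, that is of every exonic base of the gene counted once, Sp3 was highest in Control1 (16.4 ± 1.04 CPM per kb), followed by Mbnl1 (14.2 ± 0.43), Mtf2 (7.42 ± 0.27), Ankhd1 (6.18 ± 0.15) and Ints2 (4.49 ± 0.29) (SD, n = 3). Per kilobase of the longest transcript, Mbnl1 (46.9 ± 1.43) stood above Sp3 (19.4 ± 1.22). The merged exons of Mbnl1 (18717 bases) are much longer than its longest transcript (5655 bases), so the order of these 2 genes depended on the length used, and which transcripts were made cannot be read from gene counts.

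The iAs difference where ASC had been added was tested in ASC300 against ASC, whose means the choice did not compare. These tumors did help set the spread in the fit that picked the genes. Their errors, intervals and p are thus not independent of the choice. None of the 5 genes passed, and 3 of them had a log2 difference below 0, as did 51.4% of all genes. At this call rule 0% of the 20818 genes were called in either direction with edgeR, 362 (1.74%) were lower and 307 (1.47%) higher at an unadjusted p under 0.05, and DESeq2 called 6 lower and 4 higher. In none of the 5 genes were the groups apart, which was so for 3.91% of all genes with ASC300 lower and 4.17% with ASC300 higher.

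In the fit of all 12 tumors, Ints2 alone of the 5 had an unadjusted p under 0.05. Its log2 difference of ASC300 from ASC was -0.26 ± 0.10 (95% interval -0.48 to -0.04), with an edgeR quasi-likelihood adjusted p of 1 and an unadjusted p of 0.0266. This is a change of -16.5%. Of the ASC300 tumors, 2 were below every ASC tumor. The difference did not survive the correction over all genes. Without ASC replicate 1, ASC replicate 2, ASC300 replicate 1 or ASC300 replicate 3 the unadjusted edgeR quasi-likelihood p was 0.107, 0.072, 0.065 and 0.0939. Over the alternatives tried, the adjusted p of Ints2 was never below 0.863.

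For Mbnl1 the log2 difference of ASC300 from ASC was 0.02 ± 0.09 (95% interval -0.18 to 0.22) and for Sp3 it was 0.01 ± 0.11 (-0.24 to 0.26). Both estimates were within 1 SE of 0. For Mtf2 the value was -0.07 ± 0.20 (-0.50 to 0.37) and for Ankhd1 it was -0.17 ± 0.13 (-0.45 to 0.12). Without ASC replicate 3, which had the lowest Ankhd1 level of its group, the Ankhd1 value was -0.32 ± 0.10 (edgeR quasi-likelihood unadjusted p = 0.00742, adjusted p = 0.932). It came to -0.06 ± 0.09 when AC115631.1 was added. The difference between the iAs effects with and without ASC was not tested, because the genes were picked on one of these effects. A p that misses the threshold does not show that ASC300 and ASC tumors had the same level.

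The remaining comparisons share tumors with the one that picked the genes and are given side by side without a test. Relative to the same Control1 tumors, the log2 differences of the ASC tumors were -0.26 ± 0.09 for Mbnl1, -0.26 ± 0.13 for Ankhd1, -0.32 ± 0.20 for Mtf2, -0.39 ± 0.11 for Sp3 and -0.35 ± 0.10 for Ints2. Those of the ASC300 tumors were -0.24 ± 0.09, -0.43 ± 0.13, -0.38 ± 0.20, -0.38 ± 0.11 and -0.61 ± 0.10 in the same order. Every ASC tumor was below every Control1 tumor for 4 of the 5 genes (all but Ankhd1; 9.01% of all genes were lower without overlap in ASC), and every ASC300 tumor for 5 of 5 (12.2% of all genes). Since high Control1 values raised the chance of being picked, these counts are no support for an ASC difference.

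Set against A300, the ASC300 tumors were higher by a log2 difference of 0.37 ± 0.09 for Mbnl1, 0.40 ± 0.13 for Ankhd1, 0.86 ± 0.20 for Mtf2 and 0.29 ± 0.11 for Sp3 (SE). For Ints2 the value was -0.01 ± 0.10. The groups did not overlap for 4 of the 5 genes, all but Ints2, beside 11.3% of all genes that were higher in ASC300 without overlap. Since low A300 values also raised the chance of being picked, this count is no support for a difference of ASC300 from A300. In these values Ints2 had another order of groups than the other 4, with the 2 iAs groups at the bottom instead of A300 alone. Markers of other cells moved between the same tumors. Epithelial markers (8 of 8 detected, none at 0 in all tumors) summed to 27.3 to 42.2 CPM in ASC300 and 32.0 to 49.0 CPM in ASC, against 98.0 to 120.8 CPM in A300 and 67.1 to 363 CPM in Control1. The 363 CPM was Control1 replicate 1, with 67.1 and 94.9 CPM in replicates 2 and 3. Krt8 alone averaged 98.9 CPM in A300, so the sum mostly followed that gene. T cell markers summed to 33.0 to 50.0 CPM in ASC300 and 35.9 to 55.3 CPM in ASC, above the A300 range, and macrophage markers to 1302 to 1536 CPM in ASC300 and 1220 to 1706 CPM in ASC. The part of these markers in the levels of the 5 genes was not tested.

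The 5 genes are long and poor in GC. Their merged exons have 37.8% (Mbnl1), 39.5% (Mtf2), 40.9% (Sp3), 41.7% (Ints2) and 45.4% (Ankhd1) GC, which put Mbnl1 at percentile 2.83, Mtf2 at 6.35, Sp3 at 10.5, Ints2 at 13.2 and Ankhd1 at 30.5 of the tested genes. Their lengths ran from 4933 bases for Sp3, at percentile 67.5, to 18717 bases for Mbnl1, at percentile 99.3. The same held for the genes called lower in A300 at large, with a median of 40.8% GC and 5827.5 bases, against 56.7% and 1718 bases for those called higher and 48.8% and 3445 bases for all tested genes.

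The A300 to Control1 difference followed GC content across all genes. The median log2 difference rose from -0.32 in the lowest decile of genes by GC to 0.30 in the highest (median 58.9% GC). Of the 74 genes called lower, 36 were in the lowest GC decile and 0 in the highest, and of the 146 called higher, 2 were in the lowest and 72 in the highest. By length, the median went from 0.17 in the shortest decile (median 520 bases) to -0.22 in the longest (11310 bases). The 5 genes were picked for a change beyond these medians.

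**Figure D2:**
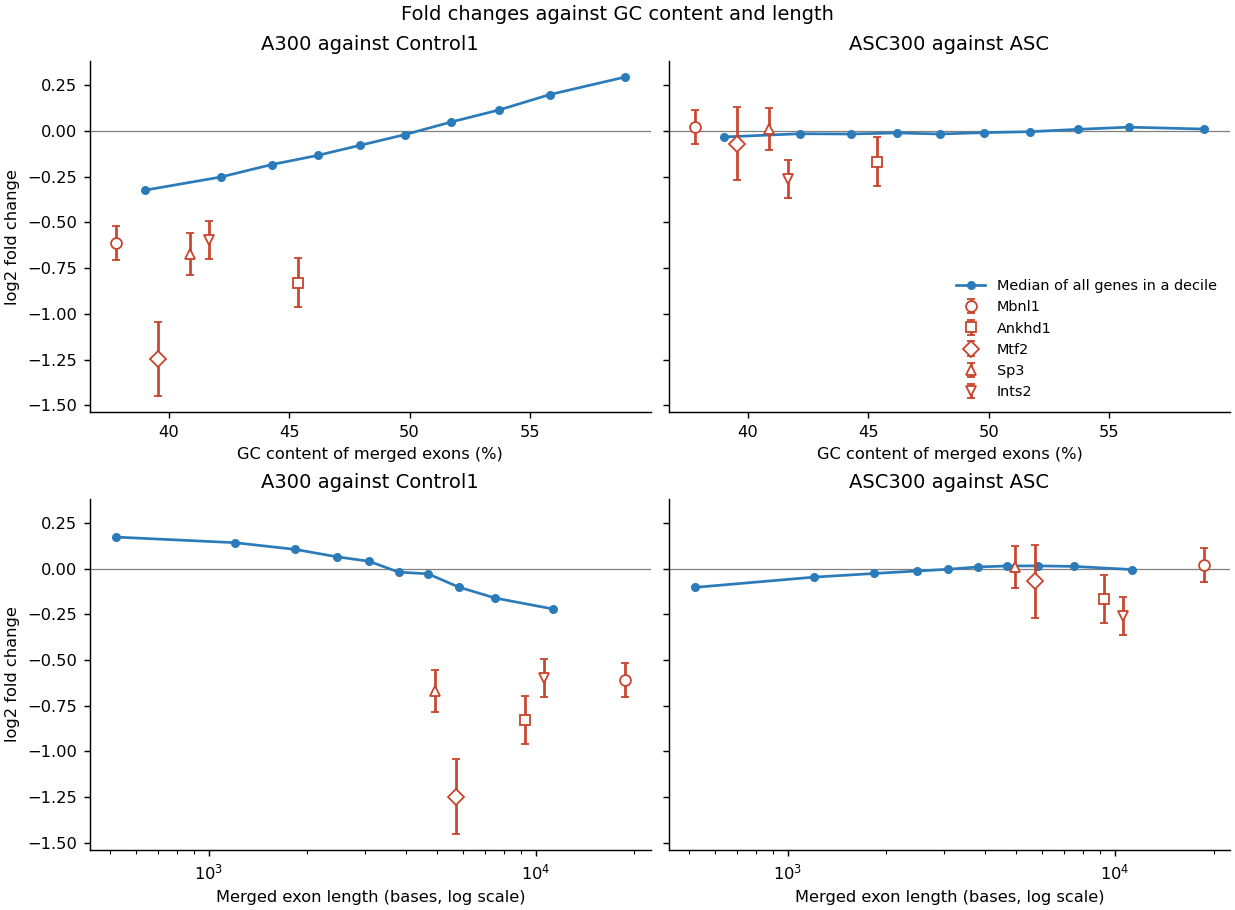
The log2 fold change (y axis) against GC content in % (top) and merged exon length in bases on a log axis (bottom), for A300 against Control1 (left) and ASC300 against ASC (right), with blue points for medians over deciles of all genes and red symbols for the 5 genes ± SE. The medians climb with GC from -0.32 to 0.30 on the left and stay between -0.03 and 0.02 on the right.

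In the ASC300 to ASC comparison this slope was nearly flat, at -0.03 in the lowest GC decile and 0.01 in the highest. In the ASC to Control1 comparison it ran from -0.20 to 0.18. The slope was a property of single tumors and not only of groups. As a measure of it, the GC tilt of a tumor was taken as its median log2 deviation from the 12-tumor mean in the highest GC decile minus that in the lowest.

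The GC tilt was -0.37, -0.28 and -0.44 in the Control1 tumors, -0.20, -0.02 and 0.24 in the ASC tumors, 0.08, 0.52 and 0.24 in the A300 tumors and -0.03, 0.12 and 0.06 in the ASC300 tumors. A300 replicate 2, with the highest tilt of all, had the lowest level among the A300 tumors in each of the 5 genes. ASC replicate 3, with the highest tilt in its group, had the lowest ASC level in each of the 5. A300 replicate 1 had a tilt between those of ASC300 replicates 2 and 3, and its mean deviation over the 5 genes (log2 -0.37) was lower than theirs (-0.04 and -0.08). Because the genes were picked as low in A300, that order was favored by their choice. Whether the tilt is of technical or of biological origin was not tested.

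**Figure D3:**
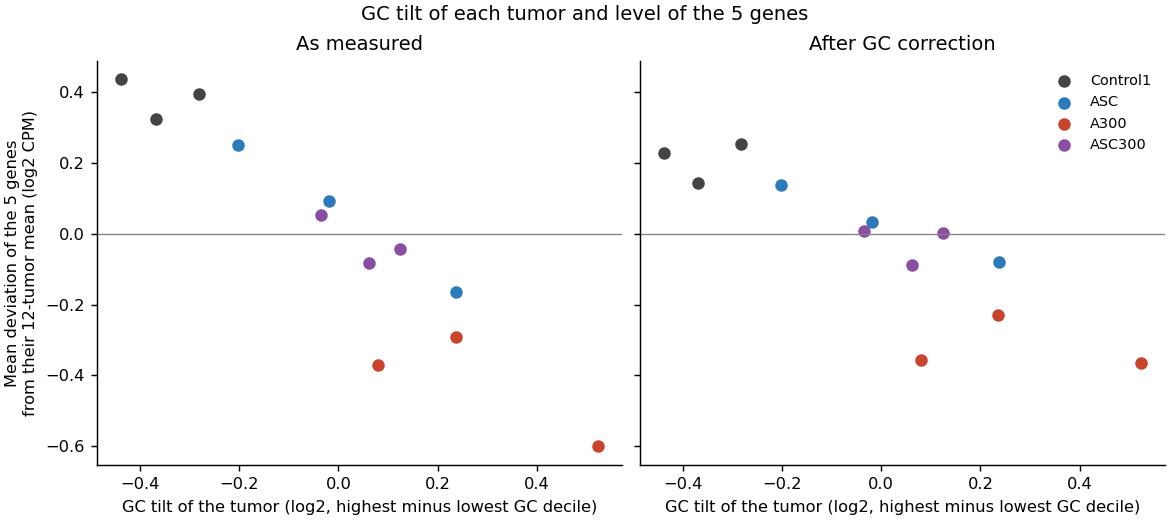
Mean log2 deviation of the 5 genes from their 12-tumor mean (y axis) against the GC tilt of each tumor (x axis, log2), as measured (left) and after removal of the GC trend (right), with 1 point per tumor colored by group. Control1 lies top left and A300 bottom right, as the choice of genes for low A300 values implies, and after the correction the A300 tumors lie between -0.37 and -0.23.

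When the GC trend of every tumor was removed before the fit, the 5 log2 differences of A300 from Control1 stayed below 0 and shrank by unequal amounts. Ankhd1 kept 83.3% of its value (-0.69 ± 0.12) and Mtf2 74.2% (-0.93 ± 0.18). Sp3 kept 57.8% (-0.39 ± 0.08), Ints2 56.8% (-0.34 ± 0.08) and Mbnl1 38.1% (-0.23 ± 0.08). With GC and length both removed, Ankhd1 was at -0.61 ± 0.10, Mtf2 at -0.88 ± 0.17, Sp3 at -0.35 ± 0.07, Ints2 at -0.25 ± 0.08 and Mbnl1 at -0.13 ± 0.09. These are the values that picked the genes, so they remain a description. The A300 and Control1 tumors were apart for 5 of 5 genes after the GC correction, beside 10% of all genes that were lower without overlap, and for 4 after both, beside 8.69%. Mbnl1 was the exception, with Control1 at 7.71 to 7.77 and A300 at 7.53 to 7.76 on the corrected log2 CPM scale. After the GC correction 0 genes passed the call rule in either direction, so none of the 5 was called in it. The calls of the 5 genes were also lost when some single tumors were left out. Without any one of the Control1 or ASC300 tumors, or without A300 replicate 2, 0 of 5 were called. Mtf2 alone was called without A300 replicate 3. With 1 tumor left out, the log2 differences ran from -0.68 to -0.55 for Mbnl1 and from -0.89 to -0.77 for Ankhd1. They ran from -1.58 to -1.08 for Mtf2, -0.75 to -0.59 for Sp3 and -0.64 to -0.52 for Ints2. The edgeR quasi-likelihood adjusted p that picked the genes was 0.0401 for each, near the threshold of 0.05. Why the calls were lost was not tested.

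**Figure D4:**
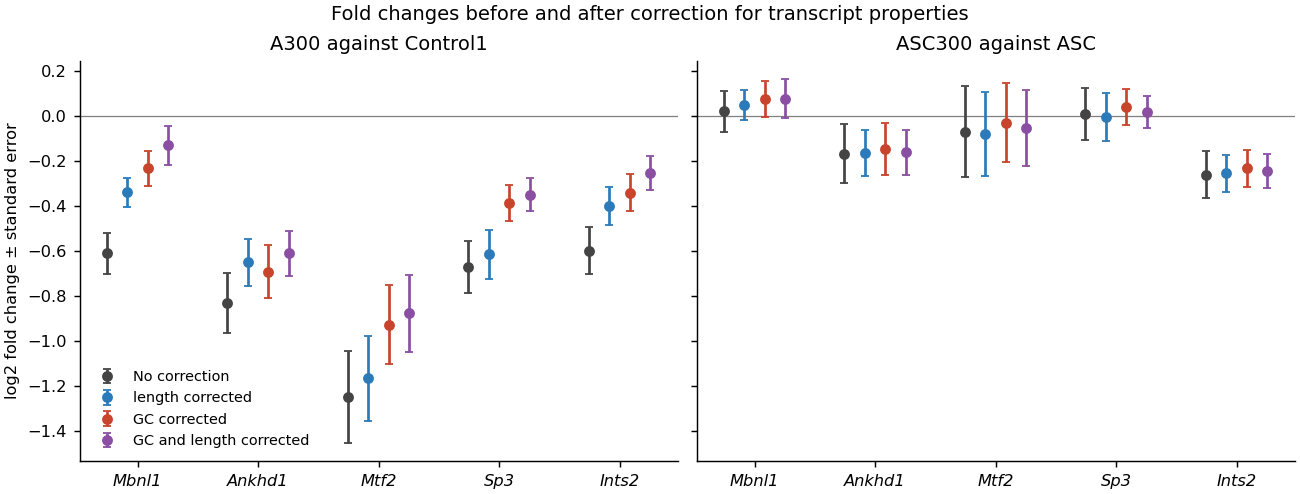
The log2 fold change ± SE (y axis) of each gene (x axis) without correction and with correction for length, GC content or both, for A300 against Control1 (left) and ASC300 against ASC (right). The corrections bring Mbnl1 from -0.61 to -0.13 on the left, leave Mtf2 at -0.88, and change little on the right.

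In ASC300 against ASC the same corrections moved the values by little. After the GC correction they were 0.08 ± 0.08 for Mbnl1, -0.15 ± 0.12 for Ankhd1, -0.03 ± 0.18 for Mtf2, 0.04 ± 0.08 for Sp3 and -0.23 ± 0.08 for Ints2.

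The 5 genes varied together over the 12 tumors, which include the 6 whose difference picked them. Pearson correlations between pairs of them on log2 CPM ran from 0.66 to 0.95 and Spearman correlations from 0.75 to 0.98, with library, depth and base composition shared by the points. With group means subtracted the Pearson values ran from 0.33 to 0.93, and with the GC trend removed from 0.30 to 0.90. The genes most like the mean of the 5 over the 12 tumors were Smchd1 (Pearson r 0.993), an X-inactivation protein of the SMC family, Mdc1 (0.988), a DNA damage mediator, Xpo1 (0.977), the nuclear exporter, Ncapg2 (0.972), a condensin II subunit, and Phf3 (0.969). Their log2 differences of A300 from Control1 lay between -0.57 and -0.45 and those of ASC300 from ASC between -0.08 and -0.03. There were 194 genes with r of at least 0.9, and their median GC content was 41.0%.

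The genes that work with the 5 were counted in 10 lists, from which the 5 themselves were left out. None of these lists had a gene called in A300 against Control1 or in ASC300 against ASC. In A300 against Control1, 13% of all tested genes were lower and 11.2% higher at an unadjusted p under 0.05, and the counts of the lists are read against these shares. After the GC correction, 7.06% of all genes were lower and 8.36% higher at that threshold. In ASC300 against ASC none of the 10 lists had a gene at an unadjusted p under 0.05.

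Among PRC2 subunits, 3 of 12 were lower and 0 higher at that unadjusted threshold, with a median log2 difference of -0.15 (median over all genes -0.03). Suz12, a core subunit, was at 87.5 ± 13.2 CPM in A300 and 125 ± 8.39 CPM in Control1 (log2 -0.51 ± 0.11, adjusted p = 0.0448), short of the minimum fold, and its value was -0.23 after GC correction. After that correction 2 of the 12 PRC2 genes were lower and 1 higher. Jarid2 was at log2 -0.32 ± 0.12 before the GC correction and at -0.32 after it. The catalytic subunit Ezh2 was at -0.16 ± 0.08 and the core subunit Eed at -0.29 ± 0.14. The other Polycomb-like genes were Phf1 at 0.10 ± 0.16 and Phf19 at -0.08 ± 0.12. Mtf2 was picked for its difference here, so a smaller difference in its relatives was favored by that choice. Of 21 genes for PRC1 subunits and H3K27 demethylases, 2 were lower (Bmi1, log2 -0.40 ± 0.11, and Kdm6a, -0.33 ± 0.12) and 2 higher, with 2 and 2 also after GC correction. Among Hox genes, classic Polycomb targets, 31 of 39 were tested, with a median log2 difference of 0.004. Of these 31, 4 were higher and 1 lower, beside 11.2% higher and 13% lower among all genes. After GC correction 2 were higher and 2 lower. Hoxb7 had the smallest p (log2 0.49 ± 0.13, adjusted p = 0.0562) and was at 0.44 after that correction.

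Of the SP and KLF factors, which share the zinc fingers of SP3, 17 of 25 were tested, with 1 lower and 1 higher. The one lower was Sp1, the closest relative that binds the same boxes, at 112 ± 3.25 CPM in A300 and 147 ± 13.0 CPM in Control1 (log2 -0.39 ± 0.08, adjusted p = 0.0435), also short of the minimum fold. After GC correction it was at -0.21, and 1 gene of the list was lower and 0 higher. Sp2 was at 0.20 ± 0.11 and Sp4 at -0.56 ± 0.42.

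Of the other Integrator subunits, 19 were tested, and 7 were lower and 4 higher at the unadjusted threshold. Ints6l (log2 -0.56 ± 0.13, adjusted p = 0.0450) and Ints8 (-0.42 ± 0.11, adjusted p = 0.0540) had the smallest p among those lower, and the phosphatase scaffold Ppp2r1a (0.34 ± 0.10) among those higher. After GC correction 1 was lower and 1 higher, with Ints6l at -0.25, Ints8 at -0.17 and Ppp2r1a at 0.26. The members of one complex thus pointed in both directions before the correction. Ints1, which is rich in GC (59.8%), was at 0.18 ± 0.08. Ints6 (39.3% GC) was at -0.31 ± 0.13 and Ints7 (48.5% GC) at -0.11 ± 0.08. Among promoter-proximal pausing factors, 2 of 12 were lower and 4 higher, led by Nelfe (log2 0.46 ± 0.10, adjusted p = 0.0430) and the kinase gene Cdk9 (0.36 ± 0.09), and after GC correction 0 were lower and 3 higher.

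Among MBNL and CELF proteins, 2 of 8 were lower and 2 higher, and after GC correction 2 and 3. The Mbnl1 paralog Mbnl2 was at 94.1 ± 16.9 CPM in A300 and 133 ± 11.6 CPM in Control1 (log2 -0.50 ± 0.13, adjusted p = 0.0515). Celf1, an antagonist of MBNL1 in splicing, was at -0.32 ± 0.09. After GC correction Mbnl2 was at -0.33 and Celf1 at -0.21. Another paralog, Mbnl3, was at -0.15 ± 0.22 before the correction and at 0.15 after it. Of 39 splicing regulators, 14 were lower and 3 higher, led by Hnrnpu (log2 -0.34 ± 0.07, adjusted p = 0.0447), Tra2b (-0.30 ± 0.07) and Ptbp3 (-0.52 ± 0.12). After GC correction 2 were lower and 8 higher, Tra2b went from -0.30 to 0.06, and the median of the list went from -0.15 to 0.06.

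Of 16 genes of the Hippo pathway, 6 were lower and 0 higher, with a median log2 difference of -0.22. After GC correction 3 were lower and 0 higher, with a median of -0.06. The 6 lower before the correction included Mob1b (log2 -0.44 ± 0.13), an activator of the LATS kinases, and Tead1 (-0.29 ± 0.09), a DNA-binding partner of YAP. The Ankhd1 paralog Ankrd17 (-0.29 ± 0.09) was also among the 6. After GC correction Mob1b was at -0.06, Tead1 at -0.20 and Ankrd17 at 0.01. Of 14 YAP target genes, 3 were lower (Crim1 at -0.39 ± 0.14 and Ptpn14 at -0.36 ± 0.13 among them) and 1, Ajuba (0.30 ± 0.10), was higher. Their median was -0.01. After GC correction 5 were lower and 0 higher, with a median of -0.16. Crim1 was then at -0.40, Ptpn14 at -0.42 and Ajuba at 0.04.

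**Figure D5:**
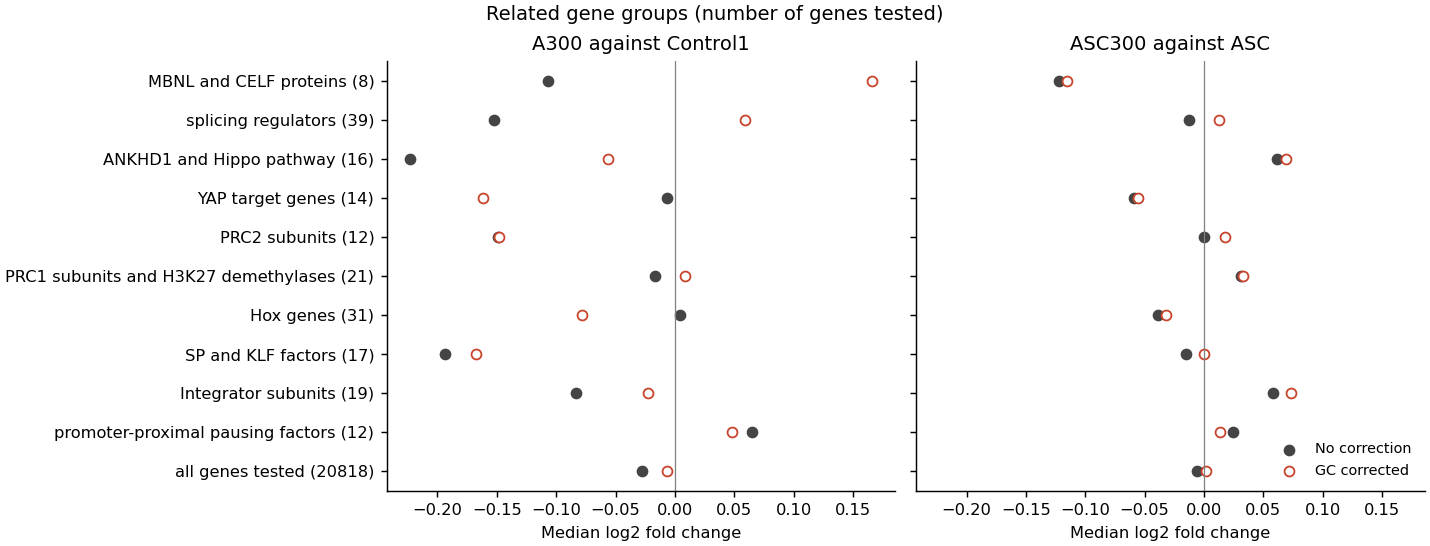
Median log2 fold change (x axis) of 10 related gene groups and of all genes tested (y axis, number of genes tested in parentheses) in A300 against Control1 (left) and ASC300 against ASC (right), without correction (filled) and with GC correction (open). In A300 the splicing regulators move from -0.15 to 0.06 with the correction and the Hippo pathway from -0.22 to -0.06, while the median of the PRC2 subunits is -0.15 in both, single genes such as Suz12 having moved.

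Markers of other cells and of RNA state were read beside the 5 genes. The summed nuclear-retained RNAs (4 genes) ran from 3501 to 4183 CPM in Control1, from 2566 to 3930 CPM in A300, from 2318 to 3187 CPM in ASC and from 2275 to 3113 CPM in ASC300, and the mitochondrial share of counts from 3.39% to 3.89% in Control1 and from 2.73% to 3.399% in A300. Neuronal markers ran from 61.2 to 79.1 CPM in Control1 and from 93.6 to 138.7 CPM in A300, and macrophage markers from 828 to 1146 CPM in Control1 and from 1167 to 1174 CPM in A300, where 2 of 8 had a log2 difference below 0. Endothelial markers ran from 235 to 265 CPM in Control1 and from 217 to 261 CPM in A300, overlapping. The part of these differences in the levels of the 5 genes was not tested.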

How the data were processed

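RNA sequencing of 12 tumors was analysed from the count table that the authors deposited, which holds whole-number counts per Ensembl gene without normalization. Per the submitters' processing notes and the study's methods, poly(A) RNA was made into stranded paired-end libraries, reads were trimmed with cutadapt 1.1.0, aligned to the mouse genome with HISAT2 2.0 and assembled and quantified with StringTie 1.3.4. The genome build, the annotation, the strand setting and the step that gave counts are not given in the sources used here. Table columns named for the control match the Control1 titles.

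Counts were analysed in R 4.3.3 with edgeR 4.0.16 (filterByExpr by group, TMM, quasi-likelihood F test, 1 mean per group over all 12 tumors). Genes were called at a change of 1.5-fold or more with a Benjamini-Hochberg adjusted p below 0.05. A prior count of 2 was used for log2 CPM. Each mouse gave 1 library. The p-values rest on a spread between tumors that was pooled over the 4 groups of 3 and drawn toward that of other genes. An exact test of 3 against 3 tumors cannot go below 0.1 for a single gene. Standard errors and 95% intervals come from the fit. Gene symbols matched 55141 of 55401 identifiers in GENCODE M21 (GRCm38), from which GC content and length were computed for 99.86% of tested genes. GC and length trends were lowess curves (span 0.3) of each tumor's deviation, used as offsets. The fit and the GC correction were also run on simulated counts, with no GC trend or with the same trend in every tumor of 1 group. The tilts of the real tumors differed within groups. That run is thus no measure of how well the correction works on them.

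The 5 genes, the gene lists and the tests were chosen with earlier results of these data known. Named genes are the 5, up to 3 genes of smallest p per list and comparison, and the 5 genes of highest correlation with the mean of the 5. Paralogs and core subunits outside this rule (Ezh2, Eed, Phf1, Phf19, Sp2, Sp4, Ints1, Ints6, Ints7) and AC115631.1, Tmed5, Sp3os and Brip1os were picked as relatives or overlapping genes. Lats2 stands in 2 lists. Of the 20 Integrator genes listed, 19 were matched. Equal replicate numbers did not pair tumors: over 18 same-numbered pairs the correlations of deviations ran from -0.12 to 0.17, with 2 over 0.1. Alternatives were DESeq2 1.42.0, its size factors, other filters and thresholds, the table summed by symbol, the 6 tumors compared alone, a replicate block, GC and length corrections, and leaving out each tumor. The GC content of the longest transcript and the sum of Ankhd1 with AC115631.1 were added after the data were seen. Promoters are from RefSeq.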

Additional observations from a re-analysis of the deposited data

How the results depend on the processing

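The 5 log2 differences of A300 from Control1 were below 0 in all 13 alternatives and in all 12 fits that left out a tumor. The choice of the genes for a large change there bears on this. As calls they held less: 0 of 5 met the call rule with no filter, with any GC correction, and without any one of the Control1 or ASC300 tumors or A300 replicate 2. Of all genes, those called lower in A300 (74) and higher (146) became 324 and 503 with the DESeq2 Wald test, 0 and 8 with no filter on low counts, 115 and 339 with at least 10 counts in every tumor, 265 and 328 with no minimum fold and 764 and 750 with unadjusted p. The lower count was 34 in a fit of the 6 tumors compared. With the length correction they became 7 and 26, and with correction for GC, for GC and length, for these with the replicate block, or for GC of the longest transcript 0 and 0. At an unadjusted p under 0.05 without a minimum fold, 2701 genes were lower and 2324 higher. Leaving out 1 tumor gave 0 to 165 lower and 0 to 279 higher, with 0 lower without any one of the Control1 or ASC300 tumors, 1 without A300 replicate 2 or 3, 32 without A300 replicate 1, 9 without ASC replicate 2, and 115 and 165 without ASC replicates 1 and 3. The cause was not tested. In ASC300 against ASC the calls (0 and 0) became 6 lower and 4 higher with DESeq2, 301 and 127 with unadjusted p, and 1 higher in the fit of 6 tumors, with 0 to 1 in each direction when a tumor was left out. No alternative brought any of the 5 genes past the threshold there, and leaving out ASC replicate 3 or 1 moved Ints2 between -0.35 and -0.19 and Ankhd1 between -0.32 and -0.05. The numbers did not pair the tumors, and the replicate block gave 61 lower and 134 higher calls in A300 and a log2 difference of -1.27 for Mtf2. The lowest count of any of the 5 genes in a tumor was 575.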
